A study of Homo sapiens with 4 samples.

Results

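The genes described here are the regulators, enzymes and transporters through which sterol regulatory element-binding proteins (SREBPs) govern the making of cholesterol and fatty acids. The set was a fixed list of 36 genes, chosen by function but with earlier results of these data known. Its counts beside those of all genes, and those of the wider list below, are therefore descriptions and no independent support. Members were read only from probe sets annotated to exactly 1 gene. Of the 36, 30 could be tested in all arrays, out of 19751 genes tested. STARD4 could be read in the replicate 1 pair alone. CYP51A1, FADS1 and ELOVL1 had only probe sets shared with another gene in the annotation, and FDFT1 and ACSL3 had none in the annotation used, so these 5 were not analysed here.

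Cells of KYSE170, an oesophageal squamous cell carcinoma line of human origin, were profiled on arrays after EDHB (ethyl-3,4-dihydroxybenzoate) at 50 µg/ml for 12 h (2 arrays) and in cells left untreated (2 arrays), all grown in RPMI medium with serum. EDHB inhibits prolyl hydroxylases, which depend on iron, oxygen and 2-oxoglutarate and mark hypoxia-inducible factors (HIFs) for destruction. All samples came from 1 cell line, and the labels name no solvent control. Nothing in them says that replicates were separate cultures, so p-values measure only the spread between these arrays, which may be technical, and in bulk RNA fewer expressing cells and less RNA per cell cannot be told apart.

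SREBPs are made as membrane proteins of the endoplasmic reticulum. SCAP escorts them to the Golgi, where proteases free the part that enters the nucleus, and the INSIG proteins hold SCAP back when sterols are plentiful. SREBF2 is known mainly for the genes of cholesterol synthesis and SREBF1 for those of fatty acid synthesis, and INSIG1 is itself an SREBP target. INSIG2 depends less on SREBPs and has been described as a HIF target in mouse liver. Several steps, among them those of SQLE, MSMO1, SC5D and SCD, consume oxygen.

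Levels are log2 of the deposited RMA intensity, and a change is the EDHB mean minus the untreated mean in log2 units. The replicate 2 columns stood in another row order and were put back into the order of replicate 1 from the untreated levels (54463 of 54613 probe sets), so changes are also given within replicate 1 (EDHB 1 minus untreated 1), which needs no restoring, and within replicate 2. The level of 1 probe set cannot be set against that of another. Median linear intensity was between 23.3 and 23.5 on the 4 arrays. Of 6 measured epithelial markers 5 lay above the median probe set (4.54), with SFN, EPCAM and CDH1 between 10.82 and 12.91. The squamous markers KRT5 and DSG3 were dimmer, between 5.88 and 6.77. KRT14 lay below it (3.19 to 4.30), and KRT6A, KRT17 and TP63 were not analysed here. Of 8 measured markers of leukocytes, endothelium, fibroblasts and hepatocytes 5 lay below it, among them PTPRC, CDH5, COL3A1 and ALB, and PECAM1, COL1A1 and APOA1 lay between 4.56 and 6.49. NDRG1 and VEGFA, well-known hypoxia-induced genes, were higher by 2.30 ± 0.23 and 1.32 ± 0.10 (SE) and give a scale for the changes below.

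After EDHB, both INSIG genes, the desaturase gene SCD and a few sterol enzymes, led by MSMO1 and IDI1, had higher levels, whereas the SREBP genes, SCAP, and the central fatty acid enzymes ACLY, ACACA and FASN differed by at most 0.11 log2 units on their brightest probe sets. A change of at least 0.5 log2 units upward within both replicates was seen for 5 of the 30 tested members (INSIG1, INSIG2, IDI1, MSMO1 and SCD), against 1.02% of all genes, and for 0 members downward, against 0.496%. For INSIG1 and INSIG2 the replicate 2 values came from a list of probe sets at least 2-fold higher (described below). Their rise within replicate 2 follows from that placement, so only IDI1, MSMO1 and SCD met this limit in both replicates without it. In limma's fit across all genes with Benjamini-Hochberg adjustment, 0 of the 30 members had an adjusted p under 0.05, where 0.0101% of all genes did, and at an unadjusted p under 0.05 there were 8 members (16.8% of all genes), 8 higher (8.81%) and 0 lower (7.98%). Of the 30 members 29 lay above the median probe set, whereas all genes include many dimmer ones. The shares of all genes in this paragraph are therefore not matched for level. With dim probe sets removed, the same fit called 4 of 29 members, among them INSIG1 and INSIG2, and 426 of 12399 genes. With an intensity trend in limma's prior variance, which lets the expected spread vary with the level, 4 members were called, against 1.90% of all genes, with 4 higher (1.07%) and 0 lower (0.830%). These were IDI1, SCD and, with replicate 2 values from the list of probe sets at least 2-fold higher, INSIG1 and INSIG2. That fit called 0 genes at all without any 1 of the 4 arrays or with a replicate block.

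**Figure D1:**
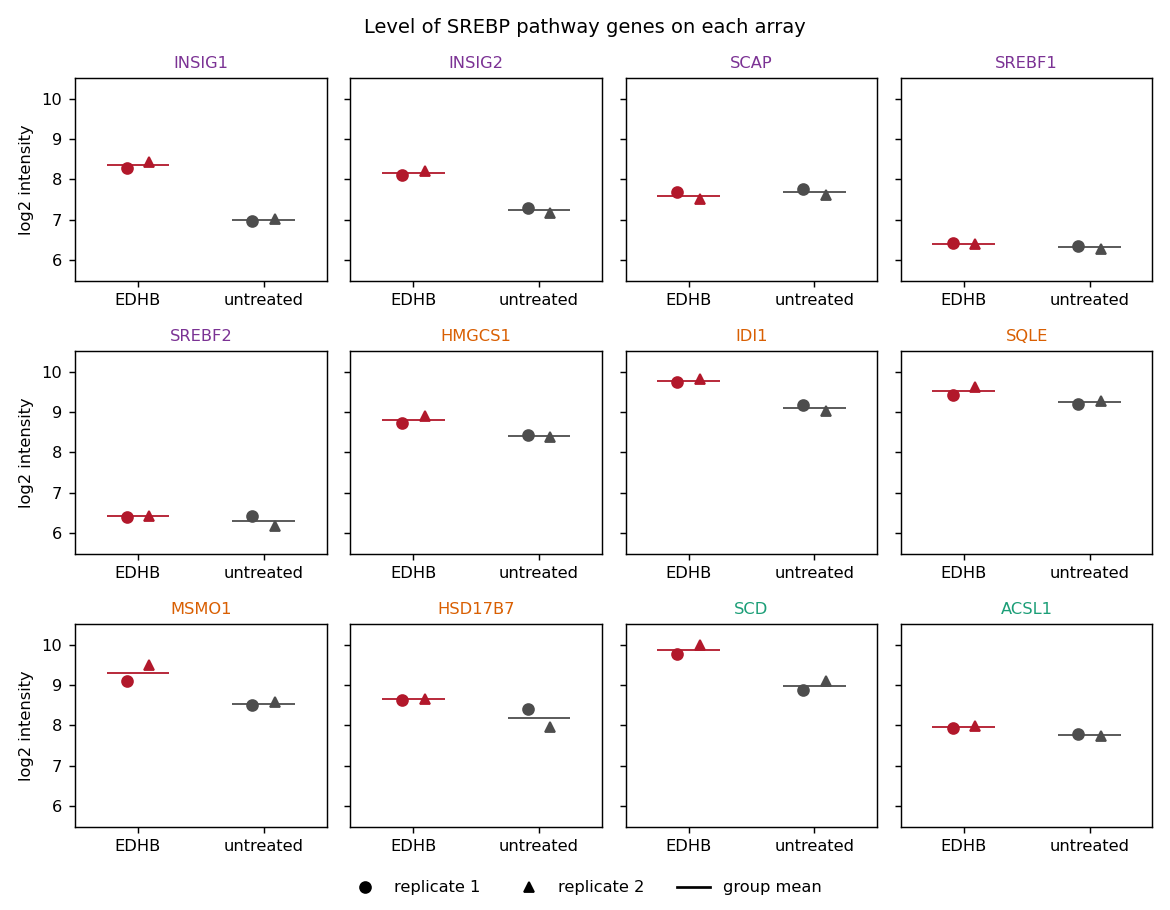
Log2 intensity of 12 members on each array, EDHB at the left and untreated at the right of each panel. Circles are replicate 1, triangles replicate 2 and lines the group means, and panel titles are purple for regulators, orange for the sterol branch and green for the fatty acid branch. The EDHB arrays of INSIG1, at 8.27 and 8.44, lie well clear of the untreated ones at 6.97 and 7.01, whereas those of SREBF2 overlap. The replicate 2 values of INSIG1 and INSIG2 came from the list of probe sets at least 2-fold higher.

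Among the regulators, INSIG1, the sterol-sensing retention protein, had log2 levels of 8.27 and 8.44 in EDHB replicates 1 and 2, against 6.97 and 7.01 in untreated replicates 1 and 2. The groups did not overlap, and their gap was over 1 log2 unit. INSIG1 was 2.57-fold higher, by 1.36 ± 0.09 log2 units (SE, n = 2 and 2; limma adjusted p = 0.0704, 0.00765 with the trend). Across 13 alternative fits its adjusted p ran between 0.00765 and 0.576 and was under 0.05 in 6. INSIG1 had 3 probe sets, and all were higher within both replicates, by 1.36 for the brightest, 1.12 for 201627_s_at and 0.68 for 201625_s_at on average.

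INSIG2, its paralogue with the same retention function, had levels of 8.10 and 8.21 in EDHB replicates 1 and 2, against 7.30 and 7.18 in untreated replicates 1 and 2. These too did not overlap. INSIG2 was 1.89-fold higher, by 0.91 ± 0.09 log2 units (SE, n = 2 and 2; limma adjusted p = 0.0763, 0.0161 with the trend), and was read by 1 probe set. Its adjusted p was under 0.05 in 5 of 13 alternative fits. The replicate 2 values of INSIG2 and of the INSIG1 probe sets 201626_at and 201627_s_at came from the part of the replicate 2 columns that held probe sets at least 2-fold higher. A rise of at least 2-fold within replicate 2 therefore follows from that placement. The separation of the groups, the SE and the adjusted p of these probe sets rest partly on it and are no independent support. The changes within replicate 1, which do not rest on the placement, were 0.80 for INSIG2, 1.30 for 201626_at and 0.96 for 201627_s_at.

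Set against each other, the change of INSIG1 exceeded that of INSIG2 by 0.45 log2 units on the brightest probe sets, by 0.50 within replicate 1 and 0.40 within replicate 2. Both EDHB arrays had a larger INSIG1 minus INSIG2 value than both untreated arrays, but with 2 arrays per group an exact two-sided permutation test cannot go below p = 0.333, which is the value it gave. The order depended on the INSIG1 probe set. With 201627_s_at the difference was 0.21, and with 201625_s_at it was -0.24, so that INSIG2 had the larger change. Which of the 2 genes had the larger change was therefore not settled by these arrays.

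The transcription factors and their escort stood near their untreated levels. SREBF1 had levels of 6.43 and 6.40 in EDHB replicates 1 and 2, against 6.36 and 6.28 in untreated replicates 1 and 2, a change of 0.09 ± 0.08 (SE) with a 95% interval of -0.11 to 0.29. SREBF2 had 6.41 and 6.44 in EDHB replicates 1 and 2, against 6.44 and 6.19 in untreated replicates 1 and 2, a change of 0.11 ± 0.11 (95% interval -0.16 to 0.38). SCAP had 7.68 and 7.51 in EDHB replicates 1 and 2, against 7.75 and 7.61 in untreated replicates 1 and 2, a change of -0.08 ± 0.10 (95% interval -0.34 to 0.18). Groups overlapped for SREBF2 and SCAP and were narrowly separate for SREBF1. None of the 3 passed, with adjusted p between 0.621 and 0.761 in limma. The other SREBF1 probe set, 1558875_at, differed by 0.24 (0.15 within replicate 1 and 0.32 within replicate 2), and the mean of both by 0.16. The 2 other SREBF2 probe sets, 242748_at and 201248_s_at, differed by -0.14 and 0.12, and SCAP had 1 probe set.

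The promoters of the regulators are shown for the 2 INSIG genes, which had the largest changes of the regulators, and for SREBF2, the factor of the sterol genes. Each window is RefSeq sequence of build GRCh38.p14, 250 bases before to 50 after a gene's start. Windows were searched on both strands for the sterol regulatory element as TCACCCCAC, as the same letters with an A before them (the full form), and as TCACNCCAC, for the E-box CACGTG, for CCAAT, which NF-Y binds, and for ACGTG, the core of the hypoxia response element. Each full form holds the shorter ones, and each CACGTG holds ACGTG on both strands. Capitals mark every match, and where a gene had several windows the one with most matches is given. The windows lie at chr7:155297628-155297927, plus strand (INSIG1), chr2:118088300-118088599, plus strand (INSIG2) and chr22:41832855-41833154, plus strand (SREBF2).
INSIG1: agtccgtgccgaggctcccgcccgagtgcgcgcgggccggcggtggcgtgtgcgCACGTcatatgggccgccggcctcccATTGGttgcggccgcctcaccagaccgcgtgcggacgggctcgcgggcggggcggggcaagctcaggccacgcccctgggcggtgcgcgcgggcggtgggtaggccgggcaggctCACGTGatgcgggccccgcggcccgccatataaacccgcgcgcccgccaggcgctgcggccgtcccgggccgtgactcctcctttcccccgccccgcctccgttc
INSIG2: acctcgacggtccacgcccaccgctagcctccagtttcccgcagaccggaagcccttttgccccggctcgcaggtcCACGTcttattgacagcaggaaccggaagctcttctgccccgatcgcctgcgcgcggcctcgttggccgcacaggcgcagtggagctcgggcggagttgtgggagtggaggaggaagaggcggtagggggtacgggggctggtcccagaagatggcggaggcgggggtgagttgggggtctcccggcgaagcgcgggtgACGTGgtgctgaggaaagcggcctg
SREBF2: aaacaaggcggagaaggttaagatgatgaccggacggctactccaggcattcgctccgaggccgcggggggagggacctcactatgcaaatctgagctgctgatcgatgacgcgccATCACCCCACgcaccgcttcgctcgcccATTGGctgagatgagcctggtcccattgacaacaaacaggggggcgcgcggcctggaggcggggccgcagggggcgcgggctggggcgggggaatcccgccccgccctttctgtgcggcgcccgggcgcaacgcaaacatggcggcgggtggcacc

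The INSIG1 window held a CACGTG at 55 bases before the start, a further ACGTG and a CCAAT. The INSIG2 window held ACGTG at 174 bases before and 26 bases after the start. FDFT1, FASN, ACAT2 and SQLE had no window in the sequences used, so their promoters were not searched. Of the 32 members with a window, SREBF2 alone held the full sterol element, at 134 bases before the start, which 16 of 35116 windows in the table share (0.0456%). TCACCCCAC and TCACNCCAC each occurred in windows of 2 members, SREBF2 and ACSL1, and in 0.430% and 1.13% of all windows. CACGTG was found in 6 of the 32 members, and in 7.26% of all windows and 8.77% of the 27305 genes that have one. ACGTG was found in 12 of the 32, and in 21.4% of windows and 24.9% of genes. CCAAT was found in 24 of the 32 members (75.0%), and in 34.6% of windows and 39.7% of genes. A match is a description of the letters and not a binding site.

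In the sterol branch, 16 of 18 members were tested. Of these 14 had a change above 0 and 2 below it, where 49.4% of all genes were above 0. In 9 of the 16 both EDHB arrays lay above both untreated arrays, a pattern seen in 23.2% of all genes, and in 0 both lay below, against 22.5%. The trend fit called 1 of them, IDI1, as higher. The changes ran between -0.20 for PMVK and 0.76 for MSMO1, with a median of 0.12, against -0.0014 over all genes.

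In the early steps, which build isoprenoid units from acetyl-CoA, the clearest differences were at HMGCS1 and IDI1. HMGCS1, which makes HMG-CoA, had levels of 8.73 and 8.90 in EDHB replicates 1 and 2, against 8.43 and 8.39 in untreated replicates 1 and 2. The groups did not overlap, and the change was 0.40 ± 0.09 (SE; limma adjusted p = 0.159, 0.0671 with the trend). Its other probe set differed by 0.22.

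IDI1, which isomerises isopentenyl diphosphate, had 9.73 and 9.82 in EDHB replicates 1 and 2, against 9.17 and 9.03 in untreated replicates 1 and 2. The EDHB arrays lay above the untreated ones by more than either group's spread, and IDI1 was 1.60-fold higher, by 0.68 ± 0.09 (SE; limma adjusted p = 0.104, 0.0227 with the trend). The next brightest of its 4 probe sets, 204615_x_at, differed by 0.59. The other 2, 242065_x_at and 233014_at, differed by -0.31 and -0.30 at lower levels, and the mean of all 4 differed by 0.16. The suffix _x marks probe sets whose probes can also bind other transcripts, which holds for 3 of the 4.

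The remaining early enzymes had smaller differences. ACAT2, the cytosolic thiolase, differed by 0.12, MVK and PMVK, the kinases of mevalonate, by 0.09 and -0.20, MVD, the decarboxylase, by 0.13, and FDPS, which makes farnesyl diphosphate, by 0.06. None of the 5 passed, with adjusted p between 0.541 and 0.787 in limma.

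From squalene onward, SQLE, the epoxidase that uses molecular oxygen, had levels of 9.42 and 9.62 in EDHB replicates 1 and 2, against 9.19 and 9.28 in untreated replicates 1 and 2. The groups were separate, with a change of 0.28 ± 0.10 (SE; limma adjusted p = 0.262), and the 3 other probe sets of SQLE were also higher, by 0.21 to 0.43. LSS, which closes the sterol rings, differed by 0.09 ± 0.08.

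MSMO1, an iron-dependent oxygenase that removes methyl groups from lanosterol-derived sterols, had 9.10 and 9.49 in EDHB replicates 1 and 2, against 8.49 and 8.57 in untreated replicates 1 and 2. It was 1.69-fold higher, by 0.76 ± 0.14 (SE; limma adjusted p = 0.141, 0.0510 with the trend), the largest change of the branch, read by 1 probe set. The 2 EDHB arrays differed from each other by more than the untreated ones, and the change was 0.60 within replicate 1 and 0.92 within replicate 2.

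HSD17B7, the reductase of the same demethylation steps, had 8.64 and 8.65 in EDHB replicates 1 and 2, against 8.41 and 7.97 in untreated replicates 1 and 2. Here the spread lay in the untreated arrays. The change of 0.46 ± 0.16 (SE; limma adjusted p = 0.258) ran between 0.23 and 0.68 when single arrays were left out, and its only probe set carries the _x suffix. On the brightest probe sets its partner NSDHL differed by -0.04, and the late enzymes TM7SF2, EBP, SC5D and DHCR7 by 0.20, 0.03, 0.15 and 0.04. The other DHCR7 probe set, 201790_s_at, differed by 0.22 (0.27 within replicate 1 and 0.17 within replicate 2). The other NSDHL probe set differed by -0.09, and those of EBP by 0.01, -0.14 and 0.12. The other SC5D probe set, below the median probe set, differed by -0.15. SC5D, another iron-dependent enzyme that uses oxygen, thus had a smaller change than MSMO1, at 0.08 within replicate 1 and 0.23 within replicate 2.

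The promoter windows of IDI1 (chr10:1048837-1049136, minus strand) and MSMO1 (chr4:165327419-165327718, plus strand) are shown as those of the sterol enzymes with the largest changes.
IDI1: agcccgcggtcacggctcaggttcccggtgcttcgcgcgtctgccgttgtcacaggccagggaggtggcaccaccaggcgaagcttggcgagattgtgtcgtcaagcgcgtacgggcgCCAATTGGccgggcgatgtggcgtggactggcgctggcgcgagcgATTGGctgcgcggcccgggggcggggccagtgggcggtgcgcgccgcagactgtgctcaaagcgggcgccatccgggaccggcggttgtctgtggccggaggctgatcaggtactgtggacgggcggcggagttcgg
MSMO1: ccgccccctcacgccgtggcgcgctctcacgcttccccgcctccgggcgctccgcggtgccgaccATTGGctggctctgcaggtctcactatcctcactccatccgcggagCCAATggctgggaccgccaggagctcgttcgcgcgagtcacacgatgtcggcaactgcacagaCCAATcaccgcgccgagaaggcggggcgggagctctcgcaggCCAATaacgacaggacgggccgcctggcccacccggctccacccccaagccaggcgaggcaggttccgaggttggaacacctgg

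Neither held one of the sterol elements, CACGTG or ACGTG as spelled here. MSMO1 had CCAAT 4 times, at 185, 139, 76 and 34 bases before the start, and IDI1 3 times, 2 of them overlapping on opposite strands.

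In the fatty acid branch, 8 of 11 members were tested, and SCD stood apart from the other 7. SCD, the iron-dependent desaturase that makes monounsaturated fatty acids, had levels of 9.76 and 9.99 in EDHB replicates 1 and 2, against 8.87 and 9.10 in untreated replicates 1 and 2. The difference between groups was larger than that between replicates, and SCD was 1.86-fold higher, by 0.90 ± 0.13 (SE; limma adjusted p = 0.109, 0.0279 with the trend). The change was 0.89 within replicate 1 and 0.90 within replicate 2. Its 3 other probe sets were higher by 0.59 to 0.65, each within both replicates.

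The enzymes that supply and build saturated chains did not pass. ACLY, which makes cytosolic acetyl-CoA, had levels of 11.00 and 10.99 in EDHB replicates 1 and 2, against 10.96 and 11.03 in untreated replicates 1 and 2, a change of -0.0025 with a 95% interval of -0.20 to 0.19. ACACA, the carboxylase that commits acetyl-CoA to synthesis, differed by -0.03 (95% interval -0.24 to 0.17), and FASN, the fatty acid synthase, by 0.0094 (95% interval -0.25 to 0.27). For these 3 a change the size of that of SCD lay outside the interval.

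Of the elongases, ELOVL6, which lengthens saturated and monounsaturated chains, had 9.93 and 9.81 in EDHB replicates 1 and 2, against 9.95 and 10.06 in untreated replicates 1 and 2. It was the 1 tested member with both EDHB arrays below both untreated arrays, with a change of -0.13 ± 0.09 (SE; limma adjusted p = 0.528), and its 2 other probe sets differed by -0.15 and -0.43. ELOVL5, which acts on polyunsaturated chains, had 11.10 and 11.05 in EDHB replicates 1 and 2, against 10.90 and 11.00 in untreated replicates 1 and 2, a change of 0.13 ± 0.08. FADS2, a desaturase of polyunsaturated fatty acids, differed by 0.10 ± 0.08. ACSL1, which activates fatty acids to their CoA esters, had 7.93 and 7.99 in EDHB replicates 1 and 2, against 7.79 and 7.73 in untreated replicates 1 and 2, a change of 0.20 ± 0.08 (adjusted p = 0.298 in limma), with 0.42 on its other probe set.

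The SCD promoter window (chr10:100346983-100347282, plus strand) is shown for the fatty acid enzyme with the largest change. It held CCAAT at 229 and 186 bases before the start and no other searched motif.
SCD: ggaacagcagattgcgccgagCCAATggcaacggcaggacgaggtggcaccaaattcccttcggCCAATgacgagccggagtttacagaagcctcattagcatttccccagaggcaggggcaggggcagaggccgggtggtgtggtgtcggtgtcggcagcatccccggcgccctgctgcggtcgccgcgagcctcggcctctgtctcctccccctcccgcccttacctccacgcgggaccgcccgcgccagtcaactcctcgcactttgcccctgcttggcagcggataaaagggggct

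**Figure D2:**
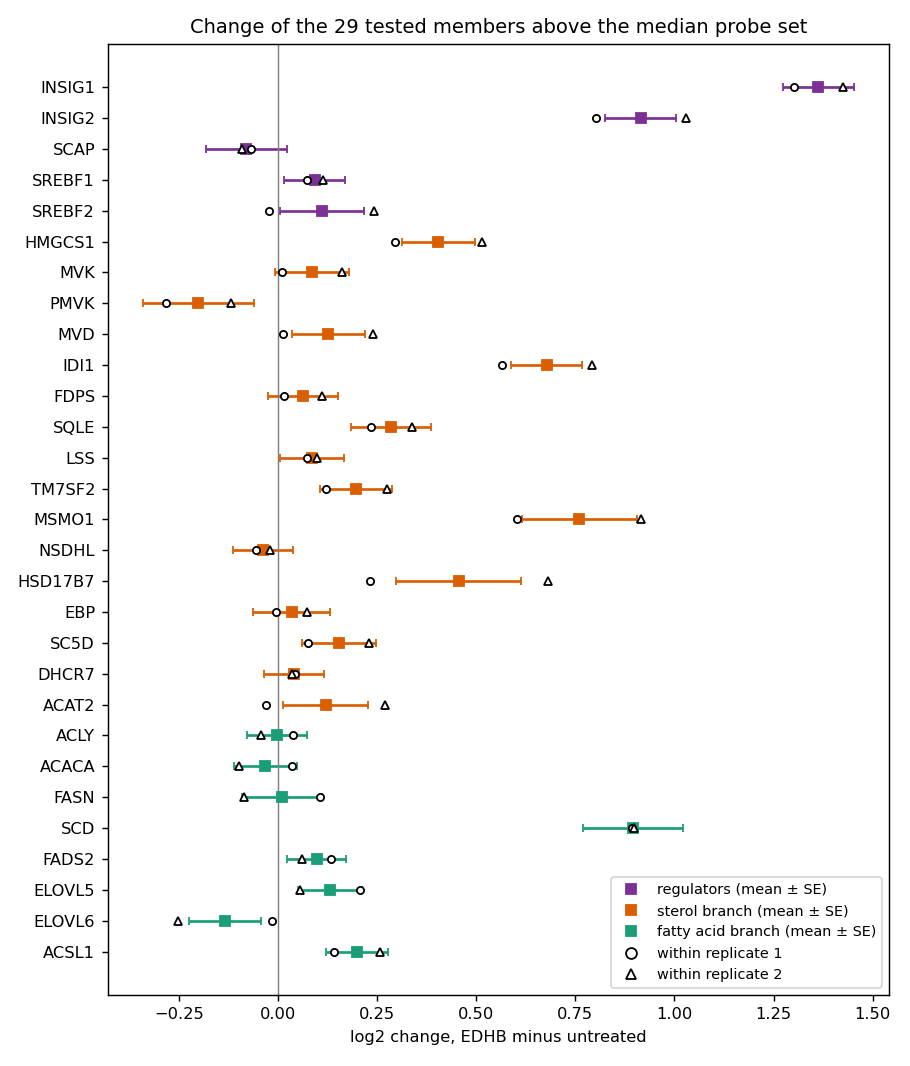
Log2 change (EDHB minus untreated) of the 29 tested members above the median probe set, grouped by role. Squares with bars are the mean and SE of the limma fit, circles the change within replicate 1 and triangles that within replicate 2. INSIG1, INSIG2, SCD, MSMO1 and IDI1 lie beyond 0.5 in both replicates, and most others lie within 0.2 of 0. For INSIG1 and INSIG2 the replicate 2 position follows from their placement among probe sets at least 2-fold higher.

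Compared as branches, the median change was 0.12 in the sterol branch (16 members) and 0.05 in the fatty acid branch (8). Both EDHB arrays lay above both untreated arrays in 9 of 16 sterol and 4 of 8 fatty acid members, against 23.2% of all genes, and below them in 0 sterol and 1 fatty acid member, against 22.5%. Without EDHB replicate 2 the medians were 0.09 in the sterol branch and 0.11 in the fatty acid branch, so that their order turned, and without untreated replicate 2 they were 0.11 in the sterol branch and 0.08 in the fatty acid branch. The order of the medians was not the same in the replicates. Within replicate 1 the median was 0.06 in the sterol branch and 0.12 in the fatty acid branch, and within replicate 2 it was 0.24 in the sterol branch and 0.0056 in the fatty acid branch. The change was larger within replicate 2 than within replicate 1 in 15 of 16 sterol members and in 2 of 8 fatty acid members, where 52.5% of all genes had this order. The difference between branches was not tested, and these medians do not set 1 branch above the other. Of the 16 sterol members 10 had a change smaller than 0.2 in size, as did 7 of the 8 fatty acid members and 74.0% of all genes.

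**Figure D3:**
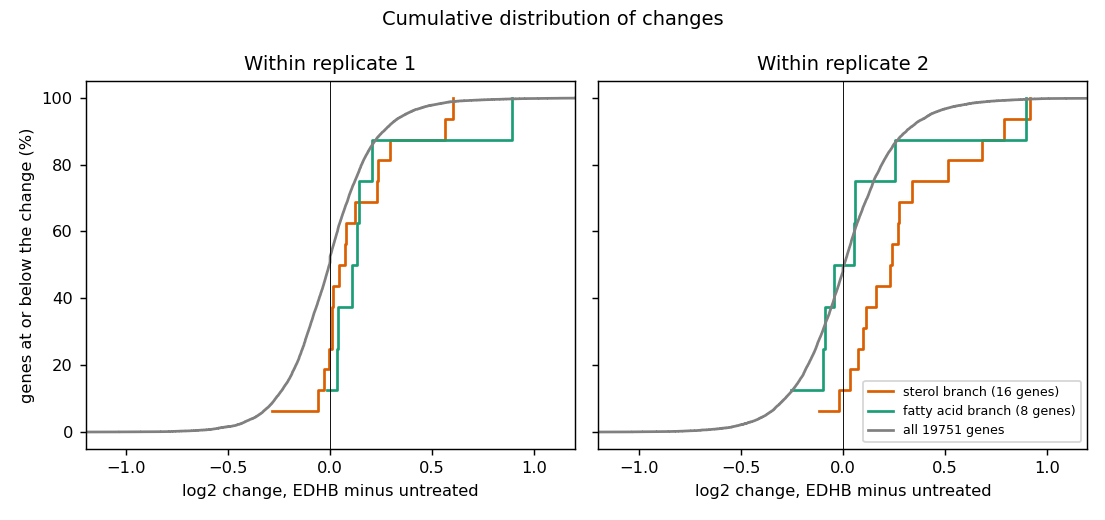
Cumulative share of genes (%) at or below each log2 change (EDHB minus untreated), within replicate 1 at the left and replicate 2 at the right, for the 16 sterol members, the 8 fatty acid members and all 19751 genes. The sterol curve lies right of the curve of all genes in replicate 2, where its median is 0.24, and the fatty acid curve ends at SCD in both panels.

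The sterol transporters could hardly be read. STARD4, which carries cholesterol between membranes, had levels of 7.18 in EDHB replicate 1, against 6.34 in untreated replicate 1, a difference of 0.85 with no replicate check. Its single probe set was not restored in replicate 2. ABCA1, the exporter of cellular cholesterol, had levels between 2.33 and 3.42 on its 4 probe sets. All lay under the median probe set, and background was not measured. The brightest one differed by -0.04, and 203504_s_at, 203505_at and 1570279_at by 0.35, 0.21 and -0.16. At such low levels these changes are not read as a direction.

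Other genes of the pathway came from a wider list, of which 35 of 39 were measured. Of these 27 had a change above 0, where 49.4% of all genes did, and 8 below it, with a median of 0.16. In limma 0 passed, against 0.0101% of all genes. At an unadjusted p under 0.05 there were 10 higher (8.81% of all genes) and 1 lower (7.98%), and the trend fit called 3 higher (1.07%) and 0 lower (0.830%). LPIN1, the phosphatidate phosphatase of triglyceride synthesis, had 8.69 and 8.78 in EDHB replicates 1 and 2, against 8.16 and 7.86 in untreated replicates 1 and 2, a change of 0.72 ± 0.12 (SE; limma adjusted p = 0.125, 0.0436 with the trend). NPC1, which exports cholesterol from lysosomes, had 9.85 and 9.74 in EDHB replicates 1 and 2, against 9.25 and 9.11 in untreated replicates 1 and 2. It was higher by 0.61 ± 0.09 on its brightest probe set (0.0279 as adjusted p with the trend in limma) and by 0.37 over the mean of its probe sets. ME1, the malic enzyme that makes NADPH for lipid synthesis, was higher by 0.29 ± 0.07 (0.0446 with the trend in limma).

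The elongases ELOVL4 and ELOVL7 were higher by 0.45 ± 0.09 and 0.42 ± 0.07 and passed in neither fit. MYLIP, an oxysterol-induced ubiquitin ligase, differed by 0.31 ± 0.09. SCD5, the second desaturase gene of the SCD type, differed by 0.35 ± 0.11 on its brightest probe set and by 0.015 over the mean of its probe sets. In the 5 measured genes listed under the proteolytic activation or degradation of the pathway's membrane proteins (MBTPS1, MBTPS2, RNF139, UBE2G2 and SPRING1) the changes ran between -0.15 and 0.20, with a median of 0.04.

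The members' probe sets were also tested singly. The 30 tested members had 70 restored probe sets with 1 gene, and 21 members had more than 1. Of the 40 probe sets beside the brightest, 11, in 8 members, had the opposite sign, 3 of them below the median probe set. In limma adjusted over all 40968 probe sets 0 were called, among members or others, and at an unadjusted p under 0.05 there were 20 member probe sets, against 14.9% of all. With the trend 4 of the 70 were called, against 0.354% of all, namely 201626_at and 201627_s_at of INSIG1, 209566_at of INSIG2 and 208881_x_at of IDI1. For the INSIG probe sets these calls rest partly on the replicate 2 placement described above.

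**Figure D4:**
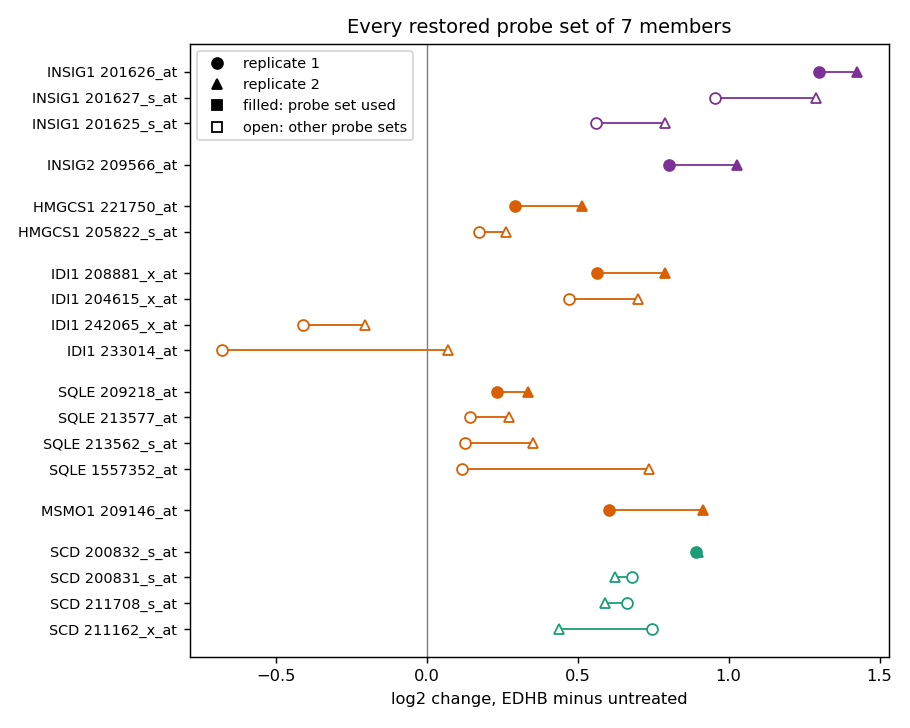
Log2 change (EDHB minus untreated) of every restored probe set of 7 members, with circles for replicate 1, triangles for replicate 2 and a line joining them. Filled symbols are the brightest probe set, which stands for the gene, and open ones the others. All probe sets of INSIG1, SCD, SQLE and HMGCS1 lie above 0, whereas 242065_x_at and 233014_at of IDI1 average -0.31 and -0.30.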

How the data were processed

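Biotinylated cRNA from total RNA was read on Affymetrix arrays, per the labels' protocols. The values the authors deposited are linear intensities, 1 for each probe set on each array, and RMA is the tool that the submitters' processing notes list. The sources used here do not give its version. This method equalises the arrays' distributions, so global differences are removed. Log2 was taken with no pseudocount.

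Each replicate 2 value got its probe set by a forward-backward alignment of untreated levels (Student's t density, scale 0.15, 3 degrees of freedom), under a layout inferred from the values and recorded in no label: probe sets at least 2-fold higher (148 values), at least 2-fold lower (45), then the others in ID order. Rows with a posterior of at least 0.95 were kept (99.7%). Of the 193 list values, 78 stayed without a probe set, so strongly changed probe sets are under-represented. Apart from bounding the 2-fold lists, the alignment did not use the EDHB values, whose correlation between replicates across probe sets was 0.997 after it and 0.418 as deposited. Each EDHB value moved with its untreated value, and most levels differ little between groups. A higher correlation therefore follows from the alignment and is no separate check of the order. The correlation of the changes within the replicates was 0.376 after the alignment and 0.0438 as deposited.

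Gene names came from the platform annotation (41091 probe sets with 1 gene, 1801 with several, 11721 with none listed), and the brightest restored one stood for a gene. The 2 EDHB and 2 untreated arrays were fitted with limma 3.58.1 (R 4.3.3; lmFit and eBayes) with no block and 2 residual degrees of freedom, and a gene was called at a Benjamini-Hochberg adjusted p under 0.05. Alternatives were an intensity trend, a replicate block, leaving out each array, 2 scalings, a filter on dim probe sets, an added 16 intensity units, the mean of probe sets, other posterior minimums (0.5 and 0.99) and the replicate 1 pair alone. Values of every array are given for the regulators, members differing by at least 0.5 within both replicates and up to 3 more per branch by p; of the wider list, the 6 largest changes of 1 sign and trend calls are named; ACLY and STARD4 were added after their values were seen. The members and lists were chosen with earlier results of these data known. The number of arrays limits the precision.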

Additional observations from a re-analysis of the deposited data

How the results depend on the processing

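The count of 2 genes called in limma (2 higher, 0 lower) became 375 with the intensity trend (211 higher, 164 lower), 40 with arrays centred on their medians (30 and 10), 7 with cyclic loess (5 and 2), 426 with dim probe sets removed (265 and 161), 79 with 16 added to the intensity (51 and 28) and 37 with the mean of probe sets (22 and 15). It was 0 with a posterior minimum of 0.5, 0 with the replicate block and between 0 and 0 without single arrays, where a lone array is assumed to vary like the other group. With the trend, combinations added after seeing the data gave 0 with the replicate block, 0 to 0 without single arrays, 834 after centring and 851 after cyclic loess. Of the 22 genes whose changes were recomputed, 19 kept their sign in every alternative. The trend, the replicate block, the dim filter and the posterior minimums left each change they returned as it was, so they could not turn a sign. SCAP ran between -0.16 and 0.0039 and SREBF2 between -0.012 and 0.23 without single arrays, and SREBF2 was -0.023 in the replicate 1 pair. For ABCA1, whose level lay under the median probe set, the value ran between -0.18 and 0.094 without single arrays. It was 0.089 over the mean of probe sets and 0.11 in the replicate 1 pair. Without single arrays the median change ran between 0.09 and 0.17 in the sterol branch, between 0.041 and 0.11 in the fatty acid branch and between 0.054 (without untreated replicate 2) and 0.23 (without untreated replicate 1) in the regulators. The INSIG1 minus INSIG2 difference stayed between 0.14 and 0.53 in 14 alternatives, some of which left it as it was. It was -0.24 with the probe set 201625_s_at, an alternative added after seeing the data. The causes were not tested. Same-numbered arrays are not tied by the labels, and their deviations correlated at 0.21 across genes. The replicate block left all changes as they were and called 0 members.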
